A study of Mus musculus with 11 samples.

Results

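6 genes were examined in hematopoietic stem cells (HSC) of 2 mutant mouse genotypes, Plac8, Gem, Sva, B4galt1, Slc15a2 and Pip5k1a, out of 37991 counted genes. They were chosen by symbol because the study's lists of differentially expressed genes place each of them above control in both NA10hd HSC and NV HSC. Their values against control therefore chose them and are given as a description without a test, and the comparison of NA10hd with NV, which the choice did not use, is tested. The study asked how a NUP98-HOXA10 fusion and an activated Nras change the transcriptome of HSC. NA10hd mice carry NUP98-HOXA10HD, a fusion that retains little of HOXA10 beyond its homeodomain, behind a stop cassette at ROSA26. The insertion was made in 1 line of C57BL/6 embryonic stem cells and carries a red fluorescent reporter. NV mice carry 1 Nras allele with the G12D change, also behind a stop cassette. In both, Vav-Cre, which acts throughout the blood system, removes the cassette, so that both mutant genotypes share this transgene. The controls are labelled wild type and called littermates in the methods, and elsewhere in the study such littermates carry the NA10hd allele without Cre. For the RNA-Seq this is not restated, so whether these controls carried Vav-Cre is not certain. All mice were 8 weeks old, and each library came from 1000 sorted Lin- CD48- c-Kit+ Sca1+ CD135- CD150+ bone marrow cells. There were 4 control, 4 NA10hd and 3 NV libraries, which captions of the study call biological replicates. The sources do not say which mice, or how many, each aliquot came from, so p-values measure the spread between these libraries, whatever its origin.

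The proteins of the 6 genes work in different places in the cell. Gem and Pip5k1a act at the plasma membrane in signalling: Gem is a small GTPase of the RGK group that binds calcium channel beta subunits, and Pip5k1a is a lipid kinase that makes phosphatidylinositol 4,5-bisphosphate, the substrate of phospholipase C and of phosphoinositide 3-kinase. Slc15a2 (PEPT2) carries short peptides into the cell along with protons, and B4galt1 adds galactose to the ends of N-glycans in the Golgi. Plac8 is a small cysteine-rich protein found in many white blood cells, and Sva is a protein that seminal vesicle secretes into semen. HOXA10 is a homeodomain transcription factor active in early blood cells, and NRAS with G12D stays in its active, GTP-bound form and signals through the MEK/ERK and phosphoinositide 3-kinase pathways.

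All 6 are protein-coding genes. In build NCBIM37, Plac8 (ENSMUSG00000029322) spans bases 100982744 to 101001264 of chromosome 5 on the minus strand. Gem (ENSMUSG00000028214) lies at 11631604 to 11641899 of chromosome 4 on the plus strand, and B4galt1 (ENSMUSG00000028413) at 40751635 to 40801038 of the same chromosome on the minus strand. Sva (ENSMUSG00000023289) lies at 41988393 to 41992850 of chromosome 6 on the plus strand, 71.0 Mb from the ROSA26 locus that holds the NA10hd insertion. Slc15a2 (ENSMUSG00000022899) lies at 36750264 to 36785048 of chromosome 16 on the minus strand. Pip5k1a (ENSMUSG00000028126) lies at 94862452 to 94910852 of chromosome 3 on the minus strand, 7.95 Mb from Nras. No other member is on chromosome 3 or 6. The insertion site of Vav-Cre is in no file used here, so distances to it are not given.

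The promoters of 3 members are shown, that of the gene without a count in control (Sva), that of Plac8, which with Gem had the largest fold in NV after Sva, and that of the kinase gene nearest to Nras (Pip5k1a). Each is the 250 bases before the start of the gene as RefSeq gives it, in build GRCm38.p6, which is not the build of the counts, and reads 5′ to 3′ along the gene. Of the 6 members, 5 have an entry, and Gem has none. Capitals mark matches on either strand to the motifs searched.

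Sva, chr6:42038144-42038393, plus strand: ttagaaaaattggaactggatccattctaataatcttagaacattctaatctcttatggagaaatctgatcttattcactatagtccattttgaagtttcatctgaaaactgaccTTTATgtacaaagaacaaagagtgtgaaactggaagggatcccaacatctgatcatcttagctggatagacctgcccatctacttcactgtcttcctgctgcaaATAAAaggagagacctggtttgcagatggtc

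Plac8, chr5:100572206-100572455, minus strand: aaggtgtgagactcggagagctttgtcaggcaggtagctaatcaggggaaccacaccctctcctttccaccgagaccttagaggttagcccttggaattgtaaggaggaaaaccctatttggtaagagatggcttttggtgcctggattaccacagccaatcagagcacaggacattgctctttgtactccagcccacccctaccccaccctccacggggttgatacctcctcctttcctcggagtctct

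Pip5k1a, chr3:95106931-95107180, minus strand: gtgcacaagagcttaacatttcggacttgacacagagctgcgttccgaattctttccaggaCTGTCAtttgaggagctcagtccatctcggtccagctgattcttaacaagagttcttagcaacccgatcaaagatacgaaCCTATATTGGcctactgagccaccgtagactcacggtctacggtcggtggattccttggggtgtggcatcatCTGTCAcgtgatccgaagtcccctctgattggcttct

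In Sva the capitals are the core TTTAT of posterior Hox proteins, once forward 135 to 131 bases before the start and once in reverse at 31 to 27 bases, and 37.3% of all 32851 promoters of this length hold that core. In Pip5k1a they are the Meis motif TGACAG, found in reverse at 189 to 184 and at 37 to 32 bases before the start (15.9% of all promoters), and a CArG box, the site of SRF, at 109 to 100 bases (1.47% of all promoters). The Plac8 promoter held no match to any motif searched. B4galt1 held 1 match to the Stat motif TTCNNNGAA (7.02% of all promoters), and Slc15a2 held 1 match to the Ets motif GGAAGT (19.7%). The other motifs searched, the Pbx-Hox site TGATTTAT (0.837% of all promoters), the AP-1 site TGANTCA (6.75%) and the TATA box TATAAA (12.4%), had no match in these 5 windows. TGATTTAT contains TTTAT. No motif occurred in more than 1 of the 5 promoters, and a match is a run of letters, not a bound site.

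Total counts ranged from 5464815 to 14283008 per library, with a median of 10639180. Genes with at least 1 count numbered 13859 to 15900. Xist and Y-linked counts showed RNA of males alone in NA10hd replicates 1 to 3 and control replicates 1 and 4, of a female alone in NA10hd replicate 4, and of both sexes in control replicates 2 and 3 and all NV libraries. All 10 long-term HSC markers of a fixed list were detected, with a summed level between 1760 and 2360 CPM in control, between 1920 and 2640 CPM in NA10hd and between 1580 and 1940 CPM in NV. Single markers of this list moved in NV and are given with the other marker lists. CPM are counts scaled to the size of the library, with TMM factors. Nras was at 111 to 113 CPM in NV, 68.2 to 93.8 CPM in control and 81.7 to 110 CPM in NA10hd, a change that did not pass in NV (log2 fold change 0.41, adjusted p = 0.124 by the edgeR quasi-likelihood test). In NA10hd the log2 fold changes of Hoxa10 (0.53, adjusted p = 0.459 by edgeR) and Nup98 (0.10, adjusted p = 0.954 by edgeR) did not pass either. These counts per gene do not separate the mutated allele or the fusion transcript from the endogenous ones.

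Level per length placed the members far apart in control HSC. Per kilobase of exon, control HSC held 18.7 CPM of Plac8, 18.2 of Gem, 15.8 of B4galt1, 5.88 of Pip5k1a, 1.75 of Slc15a2 and 0 of Sva. Among 13987 genes Plac8 stood at percentile 73.9, Pip5k1a at 45.8 and Slc15a2 at 22.4 of this scale. In NV HSC Plac8, at 120 CPM per kilobase, and Gem, at 117, reached percentiles 96.5 and 96.4. Slc15a2 was the lowest member in both mutant genotypes, at 5.45 CPM per kilobase in NA10hd and 3.82 in NV. Sva, the shortest of the transcripts, stood at percentile 58.4 in NA10hd (9.75 CPM per kilobase) and 60.7 in NV (10.9).

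**Figure D1:**
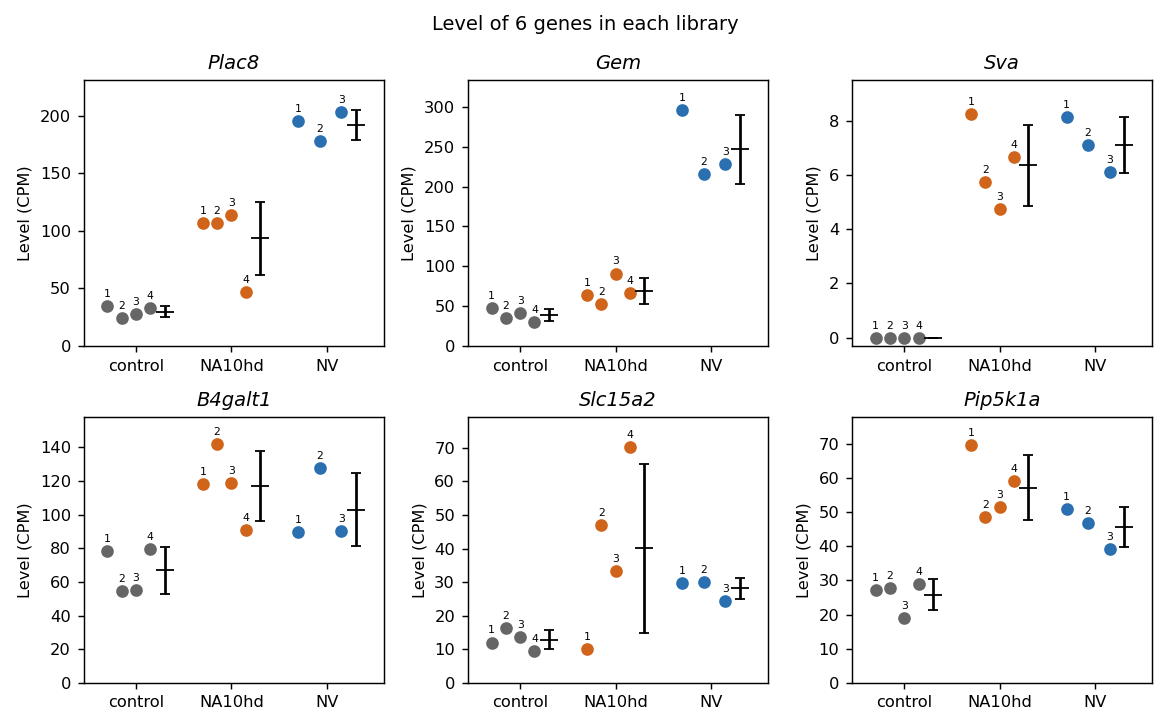
Level of the 6 genes in each library, in CPM (linear axis) for control (grey), NA10hd (orange) and NV (blue). Points are libraries with their replicate number, and the bars beside them are the mean ± SD of 4, 4 and 3 libraries. Sva is at 0 in all control libraries, Plac8 and Gem are highest in NV, and NA10hd replicate 1 of Slc15a2 lies among the controls.

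Gem, the RGK GTPase, had 47.4, 34.9, 41.6 and 29.7 CPM in the control libraries, 64.4, 52.4, 90.9 and 66.3 CPM in NA10hd and 296, 216 and 229 CPM in NV. The 3 groups did not overlap, and every NV library was above every NA10hd library. Mean CPM ± SD came to 38.4 ± 7.71 for the 4 control libraries, 68.5 ± 16.2 for the 4 NA10hd libraries and 247 ± 43.3 for the 3 NV libraries. Against control the fold was 1.79 in NA10hd and 6.43 in NV. In bulk libraries such as these, a change in the number of cells that express a gene and a change in its RNA per cell cannot be told apart.

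Pip5k1a, the kinase that makes phosphatidylinositol 4,5-bisphosphate, had 27.3, 27.9, 19.0 and 28.8 CPM in control, 69.6, 48.5, 51.5 and 59.2 CPM in NA10hd and 50.9, 46.7 and 39.3 CPM in NV. All 7 mutant libraries were above all control libraries, and the 2 mutant genotypes overlapped. Mean CPM ± SD came to 25.8 ± 4.56 for the 4 control libraries, 57.2 ± 9.42 for the 4 NA10hd libraries and 45.6 ± 5.84 for the 3 NV libraries. The fold was 2.22 in NA10hd and 1.77 in NV. Its lowest control library, replicate 3 at 19.0 CPM, stood apart from the other controls.

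Slc15a2, the peptide transporter, had 12.0, 16.4, 13.6 and 9.42 CPM in control, 9.96, 46.9, 33.4 and 70.3 CPM in NA10hd and 29.6, 30.1 and 24.5 CPM in NV. NV lay above control throughout. NA10hd did not, because replicate 1 fell within the control range while replicate 4 held the highest level of any library. Mean CPM ± SD came to 12.9 ± 2.93 for the 4 control libraries, 40.1 ± 25.2 for the 4 NA10hd libraries and 28.1 ± 3.08 for the 3 NV libraries. On the log2 scale the SD over the NA10hd libraries was 1.20 for Slc15a2, where the median SD of all genes in this group was 0.52 and those of Gem, Sva, B4galt1 and Pip5k1a were 0.23 to 0.33. The fold was 3.12 in NA10hd and 2.17 in NV, and the log2 fold change in NA10hd moved from 1.24 to 1.96 as single libraries were left out.

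B4galt1, the galactosyltransferase, had 78.3, 54.4, 55.1 and 79.8 CPM in control, 118, 142, 119 and 90.8 CPM in NA10hd and 89.9, 128 and 90.1 CPM in NV. Every mutant library was above every control library, with NA10hd replicate 4 and NV replicates 1 and 3 close to the highest control. Mean CPM ± SD came to 66.9 ± 14.0 for the 4 control libraries, 117 ± 20.9 for the 4 NA10hd libraries and 103 ± 21.9 for the 3 NV libraries. The fold was 1.76 in NA10hd and 1.54 in NV. The latter was the smallest of the members in NV and lies just inside the fold of 1.5 used for calls.

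Plac8 had 34.3, 24.3, 27.5 and 33.0 CPM in control, 107, 107, 114 and 46.4 CPM in NA10hd and 195, 178 and 203 CPM in NV. The 3 groups did not overlap, although NA10hd replicate 4, the library of female RNA alone, stood far below the other 3 NA10hd libraries. Mean CPM ± SD came to 29.8 ± 4.67 for the 4 control libraries, 93.6 ± 31.7 for the 4 NA10hd libraries and 192 ± 12.8 for the 3 NV libraries. The fold was 3.17 in NA10hd and 6.44 in NV. Without NA10hd replicate 4 and the controls of mixed sex, the log2 fold change of NA10hd was 1.70, beside 1.66 with all libraries.

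Sva, the seminal vesicle protein, had no count in any of the 4 control libraries. It had 67, 72, 55 and 47 counts in NA10hd (8.24, 5.73, 4.75 and 6.67 CPM) and 102, 105 and 63 counts in NV (8.12, 7.11 and 6.09 CPM). The levels of both mutant genotypes overlapped. A count of 0 among the 35904381 counts of the control libraries allows a level of up to 0.0836 CPM, taken as 3 counts over the group. Against that limit the pooled NA10hd libraries, with 241 of 40259902 counts (5.99 CPM), were at least 71.6-fold higher, and the pooled NV libraries, with 270 of 36597205 counts (7.38 CPM), were at least 88.3-fold higher. Without molecular identifiers, reads of one molecule are not independent, and the limit accounts for counting error alone.

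Of 19904 genes with 0 counts in every control library, Sva was the only one with at least 1 count in all 7 mutant libraries, and also the only one with at least 10. This count was chosen after the values of Sva were seen. The closest relatives, Sval1, Sval2, Sval3 and Pip, had 0 counts in all 11 libraries. Since both genotypes with Sva counts carry Vav-Cre and the controls may not, the mutations and this transgene cannot be told apart for Sva. The same holds for the levels of the other members against control. All 8 markers of seminal vesicle on a fixed list were also at 0 in every library, among them Svs2, Svs4 and Svs5, which encode major proteins of its secretion. The genes within 100 kb of Sva, which are Sval1, Sval3 and the taste receptor gene Tas2r139, had 0 counts there too.

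Over the members, 5 of 6 had every NA10hd library above every control library, where 3.89% of all tested genes did. All 6 had every NV library above every control library, where 9.49% of all tested genes did, and 5 met both conditions, where 0.549% of genes did. These counts follow from how the members were chosen. The median log2 fold change against control was 1.40 in NA10hd and 1.90 in NV, with Sva at its lower bound, beside 0.02 and -0.01 over all genes tested. The edgeR quasi-likelihood test called 0 of 13060 genes higher in NA10hd than in control at the thresholds used (1 gene was called in all, 0.00766% of those tested), so none of the 6 passed it there (865 genes, 6.62%, were higher and 5.26% lower at an unadjusted p under 0.05, and DESeq2 called 1.92% in all). In NV the same test called 4.76% of 13462 genes, 2.55% as higher, and DESeq2 6.92%. The 2 comparisons share their control libraries.

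**Figure D2:**
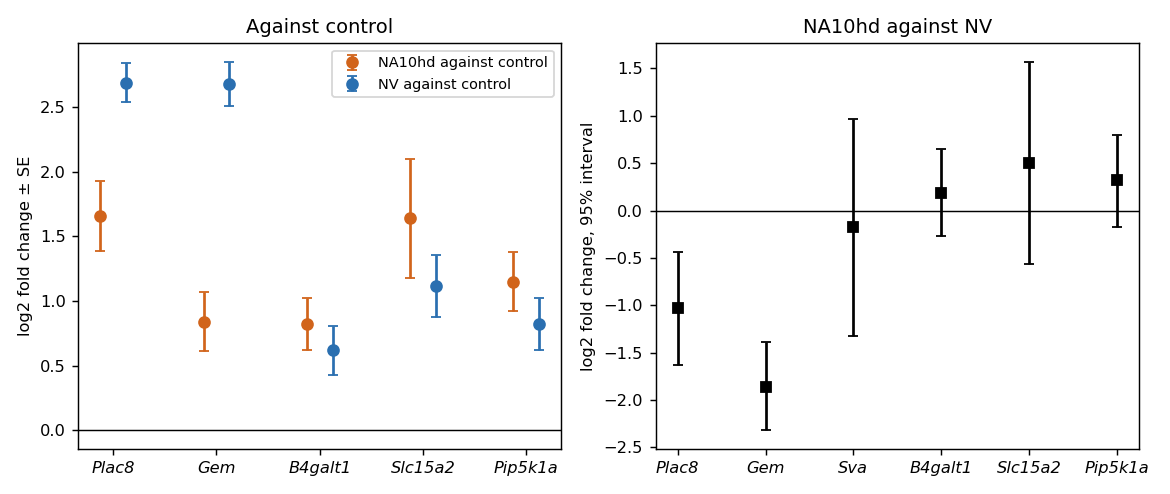
Left, log2 fold change ± SE (edgeR) against control of 5 genes in NA10hd (orange) and NV (blue), with Sva left out because it has no count in control. Right, log2 fold change of NA10hd against NV with its 95% interval for all 6 genes, where values below 0 are higher in NV. Gem and Plac8 lie below 0 with their whole intervals, and the other 4 intervals include 0.

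NA10hd HSC and NV HSC differed in 2 of the 6 members, Gem and Plac8, both higher in NV. The edgeR quasi-likelihood test called 5.09% of 13461 genes in this comparison, 2.79% as higher in NV. Gem was 3.62-fold lower in NA10hd than in NV (log2 fold change -1.86, SE 0.21, 95% interval -2.32 to -1.39, adjusted p = 0.00079), and it was called with any 1 library left out. Plac8 was 2.05-fold lower in NA10hd (log2 fold change -1.03, SE 0.27, interval -1.63 to -0.44), with an adjusted p of 0.0498 by edgeR, at the edge of the threshold. Plac8 was called in only 1 of 7 fits with a library left out, with adjusted p from 0.0148 without NA10hd replicate 4 to 0.207 without NV replicate 3, and DESeq2, which called 10.3% of genes in this comparison, gave 0.00795. Both genes had every NV library above every NA10hd library, as did 11.3% of all genes tested. In the same comparison 5 of 10 long-term HSC markers were called higher in NA10hd and 3 of 7 megakaryocyte markers higher in NV, and their part in the differences of Gem and Plac8 was not tested.

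The other 4 members did not pass the test between the mutant genotypes. The log2 fold change of NA10hd against NV was 0.50 for Slc15a2 (95% interval -0.56 to 1.57), 0.32 for Pip5k1a (-0.17 to 0.80), 0.19 for B4galt1 (-0.27 to 0.65) and -0.17 for Sva (-1.32 to 0.97). Adjusted p-values by edgeR were 0.649, 0.485, 0.706 and 0.908. The intervals of Slc15a2 and Sva leave room for differences of more than 1 on the log2 scale, and those of Pip5k1a and B4galt1 are narrower. With the spread of these libraries, equal levels are not shown for any of them.

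No gene of the families and pathways around the members was called higher than control in either genotype. Of 82 such genes, with the members left out, 64 were tested against control. In NA10hd the edgeR quasi-likelihood test called none of the 64, with 3 higher and 3 lower at an unadjusted p under 0.05, and DESeq2 called 1, Pi4kb, as lower. In NV edgeR called 4 of the 64, all lower, where 2.21% of all genes tested were called lower, and DESeq2 called 6, also all lower. The median log2 fold change of the 64 was 0.07 in NA10hd and -0.04 in NV.

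**Figure D3:**
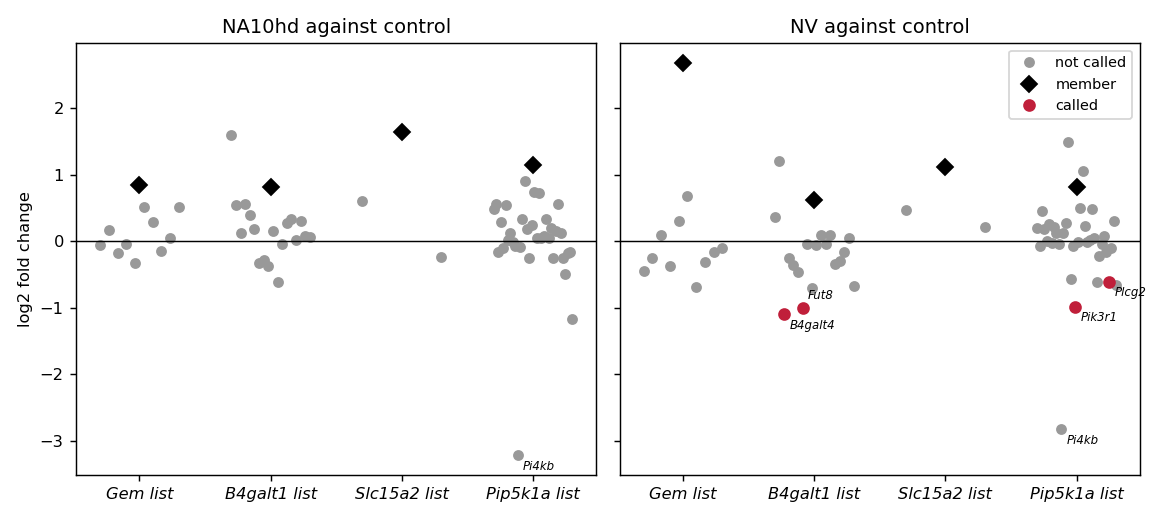
Log2 fold change against control (edgeR) of the tested genes in the lists around 4 members, in NA10hd (left) and NV (right), with the member itself as a black diamond. Grey points did not pass the test and red points did. The red points, B4galt4, Fut8, Pik3r1 and Plcg2, are all in NV and all below 0.

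Around B4galt1, 18 of 22 galactosyltransferases and N-glycan enzymes were tested against control. In NV 2 of them fell. B4galt4, a galactosyltransferase of the same family, had 123 to 135 CPM in control and 51.3 to 78.8 CPM in NV (log2 fold change -1.10, SE 0.17, adjusted p = 0.00273 by edgeR). Fut8, which adds the core fucose of N-glycans, had 290 to 596 CPM in control and 200 to 216 CPM in NV (log2 fold change -1.01, SE 0.21, adjusted p = 0.0159 by edgeR). B4galt4 was called with any 1 library left out, and Fut8 in 4 of 7 such fits but not without any 1 of the NV libraries. B4galt1 itself was at a log2 fold change of 0.62 (SE 0.19) in NV. In NA10hd B4galt4 was at 116 to 158 CPM, and it was higher than in NV (log2 fold change 1.20, SE 0.21, adjusted p = 0.00891 by edgeR). In that comparison 2 of the 19 genes tested were called higher in NA10hd, where 2.3% of all genes were. The other, St3gal1, which caps galactose with sialic acid, had a log2 fold change of 0.66 (SE 0.17, adjusted p = 0.0481 by edgeR), at 243 to 346 CPM in NA10hd against 164 to 197 CPM in NV. Of the 7 fits with a library left out, B4galt4 was called in 5 and St3gal1 in 1, neither of them without NV replicate 2 or 3.

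Around Pip5k1a, 34 of 36 phosphoinositide kinases, phosphatases and phospholipases were tested against control. The sister kinases did not pass in either genotype: Pip5k1b had a log2 fold change of 0.04 (SE 0.31) in NA10hd and 0.49 (SE 0.20) in NV, and Pip5k1c 0.20 (SE 0.32) and 0.05 (SE 0.17). In NV, Pik3r1, the regulatory subunit of phosphoinositide 3-kinase, had 138 to 215 CPM in control and 77.8 to 110 CPM in NV (log2 fold change -0.99, SE 0.18, adjusted p = 0.00716 by edgeR). Plcg2, a phospholipase C that cleaves the lipid Pip5k1a makes, had 205 to 296 CPM in control and 162 to 177 CPM in NV (-0.61, SE 0.13, adjusted p = 0.0183 by edgeR). Pik3r1 was higher in NA10hd than in NV (1.22, SE 0.27, adjusted p = 0.0267 by edgeR). With a library left out, the fall of Pik3r1 in NV was called in 6 of 7 fits (not without NV replicate 3) and that of Plcg2 in 2 of 7. The difference of Pik3r1 between NA10hd and NV was called in 3 of 7, none of them without an NV library. Pi4kb, which makes the substrate of Pip5k1a, was at 0.715, 6.25, 17.9 and 11.7 CPM in control, 1.84, 1.67, 0.346 and 0 CPM in NA10hd and 0.239, 1.29 and 2.42 CPM in NV. Its control libraries spread widely and replicate 1 lay within the mutant range. By edgeR the log2 fold change of -3.22 (SE 1.04, adjusted p = 0.287) in NA10hd and -2.83 (SE 0.90, adjusted p = 0.0949) in NV did not pass, whereas DESeq2 called both, with adjusted p of 0.0448 and 0.0102.

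Around Gem, 10 of 14 other RGK GTPases and partners of Gem were tested and none passed against control in either genotype. Rrad, another RGK GTPase, had 54.0 to 103 CPM in NA10hd, 40.9 to 63.6 CPM in control and 45.4 to 51.6 CPM in NV. Of the Slc15 transporters, Slc15a3 and Slc15a4 were tested and neither passed in either genotype, and the other 2 had 0 counts in all libraries. Slc15a3 was at 2.02 to 6.16 CPM over all 11 libraries, and Slc15a4 at 19.4 to 58.2 CPM. The relatives of Plac8, Plac8l1 and Cnfn, had 0 counts in all libraries.

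Genes beside the members on the chromosome were called in only 1 case. Within 100 kb of the 6 members lay 52 other genes, of which 14 had 0 counts in all libraries. In NA10hd 26 were tested and none was called by edgeR, with 1 higher and 2 lower at an unadjusted p under 0.05, and DESeq2 called 2, Lysmd1 and Pi4kb. In NV 29 were tested and 1 was called, where 2.55% of all genes were called higher. This gene was Rad54b, a DNA repair ATPase whose gene lies 88652 bases from Gem. Rad54b had 2.50 to 7.13 CPM in control, 0 to 6.81 CPM in NA10hd and 13.8 to 23.8 CPM in NV (log2 fold change 1.95, SE 0.39, adjusted p = 0.0123 by edgeR, called in 5 of 7 fits with a library left out, though not without NV replicate 2 or 3). Between NA10hd and NV none of 29 neighbours passed by edgeR, with 3 higher and 2 lower at an unadjusted p under 0.05 (10.2% and 9.27% of all genes), and DESeq2 called 3, Chmp5, Lin54 and Rad54b.

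**Figure D4:**
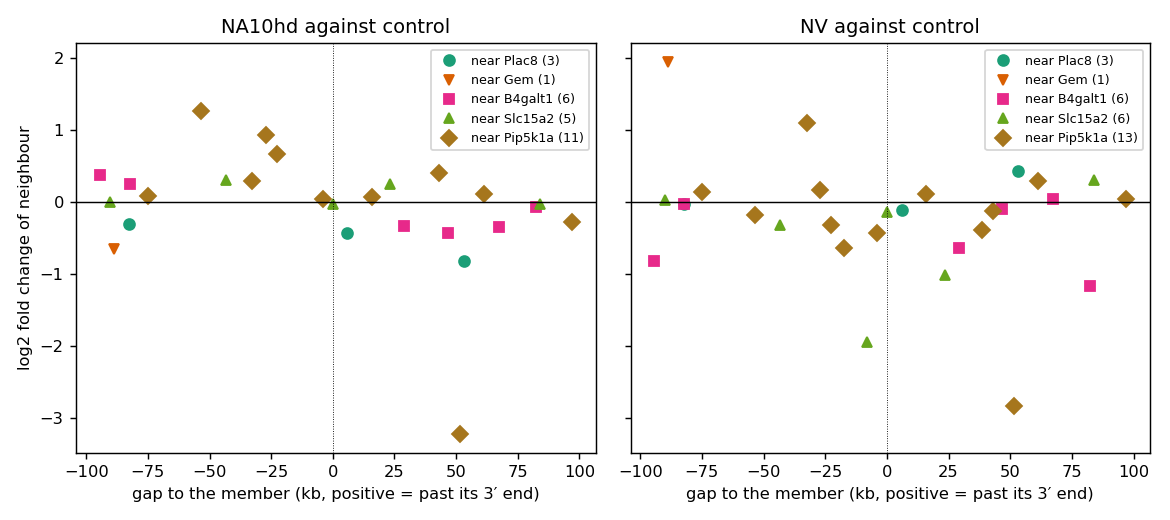
Log2 fold change against control (edgeR) of the tested genes within 100 kb of a member, plotted by their gap to the member in kb, for NA10hd (left) and NV (right). Colour and shape give the member, with the number of its neighbours tested. Most points lie near 0, Rad54b beside Gem is the highest in NV at 1.95, and Pi4kb beside Pip5k1a is the lowest in both, at -3.22 and -2.83. Sva has no tested neighbour.

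Overlapping genes touch 3 of the members. The pseudogene Gm8425 lies on the opposite strand within Slc15a2 and had 149 counts over all libraries. A small nucleolar RNA gene (5 counts) and a U6 gene (0 counts) lie within Pip5k1a, and 3 miRNA genes with 0 counts lie within B4galt1. Whether the counting used strand is not given in the sources used here, so reads of Slc15a2 and Gm8425 could be exchanged.

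Across the 11 libraries, each member was set beside the genes most similar to it, and of those named only Itgb2 stood beside 2 of the members. The measure was Pearson's r of log2 CPM over 14013 genes. The libraries fall into 3 genotypes, so that any gene with a step between genotypes scores high and r is a description only. Plac8 was most like Irf7 (0.945), a transcription factor of the interferon response, Itgb2 (0.929), a leukocyte integrin, and Arhgap30 (0.924). Irf7 had 22.9 to 44.5 CPM in control and 85.0 to 98.6 CPM in NV, and 40.9 to 96.1 CPM in NA10hd, where replicate 4 was again the lowest. Gem was most like Itgb2 (0.915) and Ddc (0.907), the enzyme that makes dopamine and serotonin, which had 1.59 to 2.17 CPM in NV and at most 0.95 CPM in the other libraries. Sva was most like Flt3l (0.943), a cytokine gene, H2-T23 (0.926), a nonclassical class I molecule, and Gpn3 (0.907).

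The 3 other members resembled genes of other kinds. B4galt1 was most like 2410066E13Rik (0.94), 2210012G02Rik (0.906) and Gm16026 (0.888). Slc15a2 was most like Mrpl28 (0.963), of the mitochondrial ribosome, Gpr137 (0.931) and Nr1h2 (0.914), a nuclear receptor of oxysterols. Nr1h2 shared the split of the NA10hd libraries, with 60.0 CPM in replicate 1 and 138 CPM in replicate 4. Pip5k1a was most like Mettl17 (0.965), Camk2g (0.927) and Snrk (0.917), the last 2 of them protein kinases. Between the members r ran from 0.414 for Plac8 and Slc15a2 to 0.905 for Sva and Pip5k1a, and Plac8 and Gem stood at 0.883.

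Markers of HSC and of other cells were compared beside these results, with the edgeR quasi-likelihood test unless DESeq2 is named. Against control edgeR called none of the 40 markers tested in NA10hd, with 4 higher and 2 lower at an unadjusted p under 0.05, and DESeq2 called 1, Procr, as higher (log2 fold change 0.70, adjusted p = 0.0147 by DESeq2 and 0.201 by edgeR). In NV 3 of 10 long-term HSC markers were called lower, Fgd5 (mean 90.3 CPM in control, 107 in NA10hd and 41.5 in NV), Procr (131, 213 and 79.8 CPM) and Mllt3 (349, 478 and 210 CPM), where 2.21% of all genes were called lower. Ly6a, which encodes the sorting marker Sca1, was called higher, with means of 296 CPM in control and 481 CPM in NV. Between the mutant genotypes Hlf, Mllt3, Fgd5, Procr and Hoxb5 were called higher in NA10hd. These shifts went along with the high levels of Gem and Plac8 in NV, and their part in those levels was not tested.

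Megakaryocyte and erythroid markers moved with Gem and Plac8 in NV as well. The summed level of 7 megakaryocyte markers overlapped between all groups (900 to 1080 CPM in control, 969 to 1160 in NA10hd, 899 to 1040 in NV). Within the list Pf4, a platelet chemokine, had 16.1 to 28.5 CPM in control, 9.31 to 20.7 CPM in NA10hd and 68.4 to 226 CPM in NV, and Itga2b, a platelet integrin, 44.5 to 70.5, 34.1 to 58.2 and 87.4 to 181 CPM. Pf4, Itga2b and Ppbp were called higher in NV than in control and than in NA10hd. The erythroid list of 9 genes summed to 54.3 to 86.9 CPM in NV, 28.6 to 36.1 CPM in control and 19.7 to 34.8 CPM in NA10hd. Its transcription factor Klf1 and the receptor gene Epor were called higher in NV than in control, and Klf1 also higher in NV than in NA10hd. The part of these cells in the results for Gem and Plac8 was not tested.

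Lymphocyte markers moved in both directions. Their sum was 85.0 to 105 CPM in control, 103 to 154 CPM in NA10hd and 70.8 to 95.6 CPM in NV, with Cd3e, Cd3g and Ms4a1 at 0. Klrb1c, a receptor of natural killer cells, had 14.1 to 42.1 CPM in control, 36.8 to 62.6 CPM in NA10hd and 0.0677 to 2.55 CPM in NV, and was called lower in NV than in either other group. Nkg7, of cytotoxic cells, had 2.71 to 19.5, 1.11 to 13.6 and 28.7 to 51.2 CPM, and was called higher in NV than in NA10hd. Markers of granulocytes and monocytes, cells in which Plac8 is known to be expressed, summed to 749 to 802 CPM in NV, 745 to 948 CPM in control and 832 to 1070 CPM in NA10hd, with Ctsg at 0 throughout and Mpo at no more than 0.123 CPM. Of these, Prtn3 was called higher in NA10hd than in NV.

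Endothelial markers summed to 225 to 265 CPM in NV, 278 to 307 CPM in control and 262 to 351 CPM in NA10hd. Emcn was called lower in NV than in either other group, and Kdr lower in NV than in NA10hd. In the order control, NA10hd and NV, multipotent progenitor markers summed to 244 to 310, 253 to 342 and 304 to 387 CPM, with Dntt and Il7r at 0, and those of plasmacytoid dendritic cells to 18.2 to 24.7, 18.5 to 44.9 and 11.2 to 34.1 CPM, with Siglech at 0. Stromal markers summed to 3.86 to 8.66 CPM in NV, 7.41 to 18.4 CPM in control and 10.4 to 26.1 CPM in NA10hd, with Col3a1, Dcn and Lum at 0. edgeR called no marker of the progenitor, plasmacytoid dendritic cell and stromal lists. DESeq2 called Cd48, a progenitor marker that the sort excludes, as higher in NV than in NA10hd (log2 fold change of NA10hd against NV -4.87, adjusted p = 0.01 by DESeq2 and 0.0643 by edgeR). Cd48 was at 2.22 to 5.89 CPM in NV, at 0 in 3 of 4 NA10hd libraries and at 0.398 CPM in the other, and at 0.159 to 3.32 CPM in control. In NV against control DESeq2 called Hoxb5 and Kdr (lower) and Nkg7 (higher) in addition to the markers edgeR called.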

How the data were processed

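RNA-Seq counts of sorted HSC from 4 control, 4 NA10hd and 3 NV libraries were analysed, grouped by the genotype in their labels. The authors amplified full-length cDNA, prepared Nextera XT libraries, used Hisat2 to align the reads to NCBIM37, and obtained counts per gene from featureCounts. They deposited raw counts for 37991 Ensembl genes without normalization. Tool versions, annotation release, strand setting and the treatment of multimapping reads are not given in the sources used here. Gene symbols and coordinates were taken from GENCODE for NCBIM37, where 37205 of the genes had an entry.

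Each comparison was fitted to its own libraries with edgeR 4.0.16 in R 4.3.3 (TMM, default filter on low counts, quasi-likelihood test). A gene was called at a Benjamini-Hochberg adjusted p under 0.05 over all genes tested and a fold above 1.5. Levels are CPM scaled by TMM over all libraries. The limit for Sva used unscaled totals. Correlations used log2 CPM with a prior count of 2. The study used DESeq2, which was run as an alternative (1.42.0) along with limma-voom (3.58.1), DESeq2's size factors, 2 filters, glmTreat, no fold threshold, a robust fit, a joint fit of the 3 groups, a replicate block, libraries of the same sex mix and each library left out. The fit was tested on simulated data. Figures were drawn with matplotlib 3.10.9.

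Named genes are the members, per member the 3 most like it, genes of the lists or within 100 kb that were called, and Nras, Nup98 and Hoxa10 as a check of the labels. Marker genes that were called were also named, after their values were seen. Some genes of these lists that were not called (such as Pi4kb, Rrad, Pip5k1b, Pip5k1c, Slc15a3 and Slc15a4) were added after their values were seen. Some results that this rule covers are not reported here. The members and the lists were chosen with earlier results of these data known.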

Additional observations from a re-analysis of the deposited data

Results flagged for a closer look

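In 2 groups of 4 libraries a member had 1 library apart from the rest. The NA10hd replicate 4 library held Plac8 at 46.4 CPM, and its gap to the next NA10hd library was 0.889 of the range of the group, above Dixon's 95% value of 0.829 for 4 samples. The control replicate 3 library held Pip5k1a at 19.0 CPM, with a gap of 0.853 of the range. Chance gives such a gap in about 1 in 20 groups. The check covered both ends of the control and NA10hd groups of each member, except Sva in control, which has no spread. The NV groups of 3 libraries were not checked.

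The effects of both genotypes differed, by the test of NA10hd against NV, for 19 genes named here, 2 of them members. The log2 fold change of NA10hd against NV was -1.86 for Gem and -1.03 for Plac8, both higher in NV. It was 1.22 for Pik3r1, 1.20 for B4galt4 and 0.66 for St3gal1, all higher in NA10hd. Of the marker genes, it was 5.01 for Klrb1c, 1.93 for Hoxb5, 1.65 for Kdr, 1.57 for Emcn, 1.41 for Procr, 1.36 for Fgd5, 1.18 for Mllt3, 0.83 for Hlf and 0.75 for Prtn3, again higher in NA10hd. It was -4.45 for Ppbp, -4.25 for Klf1, -3.42 for Pf4, -2.58 for Nkg7 and -1.57 for Itga2b, higher in NV.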

How the results depend on the processing

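No called result changed direction under the alternatives run, while Slc15a2, which was not called, went from 0.50 to -0.12 between NA10hd and NV with a replicate block. Between NA10hd and NV, Gem was called throughout, while Plac8 was not called with DESeq2's size factors (adjusted p = 0.0516) or by glmTreat (0.334), which left 1 member called, and leaving out single libraries gave 1 to 2. Of family and pathway genes in NV, glmTreat called 0 and the fit of all 3 groups 1, with 1 to 5 as libraries were left out (1 without NV replicate 3, 2 without NV replicate 1 or 2). In NA10hd DESeq2 called 1, with 0 in all fits with a library left out. Between NA10hd and NV DESeq2 called 8 and glmTreat 0, with 0 to 3 as libraries were left out (0 without NV replicate 2 or 3). Of neighbouring genes, DESeq2 called 2 in NA10hd, 3 in NV and 3 between them. In NV glmTreat and the fit of all 3 groups called 0, and 0 to 2 were called as libraries were left out (0 without NV replicate 2 or 3, 2 without control replicate 1). Between NA10hd and NV limma-voom called 2, the filter of 10 counts in every library 1 and the fit of all 3 groups 2, with 0 to 2 as libraries were left out (1 without NA10hd replicate 1, 2 without NA10hd replicate 3). The median of the members against control was 1.15 (NA10hd) and 1.11 (NV) under that filter, which drops Sva, and 1.19 to 1.40 and 1.79 to 1.93 as libraries were left out. Calls over all genes moved more: in NA10hd from 1 to 238 (DESeq2), 8 (either other filter), 39 (all 3 groups) and 0 to 5 (libraries left out, 5 without NA10hd replicate 4); in NV from 641 to 1015 (DESeq2), 133 (glmTreat), 155 (all 3 groups), 301 (same sex mix) and 263 to 643 (269 and 263 without NV replicates 2 and 3); and between them from 685 to 1480, 185, 1152 and 146 to 771 (229, 153 and 146 without NV replicates 1, 2 and 3). The cause was not tested. Replicate numbers did not pair libraries (correlation of deviations -0.087 to 0.026, and in 4 of 20 checks a library was closest to its own number). With a replicate block the median in NV was 1.79, all-gene calls were 0, 432 and 581, and Gem and Plac8 were both called (adjusted p 0.00171 and 0.0354). Among markers, Pf4, Klrb1c, Procr and Mllt3 were called between NA10hd and NV in all 7 fits with a library left out, Prtn3 in 2, Nkg7 and Ppbp in 3 and the others in 4 or 5. In NV against control Ppbp was called in 1 of 7 such fits, Fgd5 and Klf1 in 3, Mllt3 in 5 and the others in 6 or 7. A comparison of NA10hd with NV in libraries of the same sex mix could not be made. Counts as low as those of Sva and Ddc limit precision, and 3 or 4 libraries a group leave small differences undetected.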
